A study of Mus musculus with 9 samples.

Results

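The probes examined here report 9 genes whose products carry the signal of the pre-B-cell receptor inside the cell: the SRC-family kinases Blk, Lyn, Fyn and Fgr, the kinases Syk and Btk, the adaptor Blnk, phospholipase Plcg2 and the exchange factor Rasgrp3. Their probes were taken by gene name in the array's own annotation, older aliases included. The 9 genes carry 10 probes (Lyn has 2) among the 20908 genes named on the array, and all 10 probes were among the 22355 tested. Blk, Fgr and Rasgrp3 passed the filter on dim probes solely through the Mock arrays, so they had to differ from Mock, and their count lends no support to anything. Of all 22355 tested probes, 742 (3.32%) had that same pattern.

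The study asked what the C-terminal domain of EBF1, a transcription factor that B-lineage cells need, contributes when the cell's own Ebf1 gene is replaced. All cells were Ebf1 fl/fl RERTCre pro-B cells of C57Bl/6 mice, transformed with the Abelson virus A-MuLV, and all groups received 2 µM 4-hydroxytamoxifen (4-OHT), which switches on the Cre enzyme that deletes the floxed gene. Mock cells (n = 3) had been mock-transduced and were harvested 4 days after the drug, before cell death was seen. EBF1wt cells (n = 3) carried a pmys retrovirus for full-length EBF1 with an IRES-GFP marker, and EBF1ΔC cells (n = 3) the same vector for EBF1 without its C-terminal domain. Both were given the drug 24 h after transduction, sorted as GFP+ 5 days after the drug, and used more than 2 weeks later. The labels do not say whether the 3 samples of a group were separate cultures, so the p-values reflect no more than sample-to-sample spread, possibly technical. The source label of EBF1wt replicate 3 omits the drug that its description gives. Mock arrays were scanned on a different day and on different slides from all EBF1 arrays, so against Mock the EBF1 form cannot be told apart from scan day, slide, time after the drug, transduction or sorting. EBF1wt and EBF1ΔC shared scan day 2 and 2 of their slides.

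Each value below is a relative log2 signal: the log2 of the probe's processed intensity minus the 75th percentile of that array. Values of different probes are not on 1 scale and are never set against each other. A probe was called when limma's Benjamini-Hochberg adjusted p over all tested probes was under 0.05 and the change at least 2-fold. Of all tested probes, 72.6% had no overlap between EBF1wt and Mock, 72% between EBF1ΔC and Mock, and 27.4% between EBF1ΔC and EBF1wt. The 75th percentile was 384 to 507 intensity units across the 9 arrays, and 50.7 to 56.9% of probes were well above background. Replicates correlated at 0.988 to 0.996 over the tested probes, and the second principal component (10.3% of the variance) set EBF1wt replicate 2 at 61.5, against 14.9 and 17.7 for its group. For the targeted gene, the first Ebf1 probe was at 1.45 ± 0.281 in Mock, 3.06 ± 0.173 in EBF1wt and 3.80 ± 0.0564 in EBF1ΔC (mean ± SD, n = 3 each). The second Ebf1 probe went the other way, at -3.03 to -2.33 in Mock and -7.06 to -5.33 in the EBF1 groups, where it was well above background on no array. The sources used here do not place the floxed exons or the retroviral insert relative to these probes, so neither checks the deletion or the labels. All 8 listed B-lineage markers, which include the member Blnk and the first Ebf1 probe, were well above background on every array.

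In a developing B cell the pre-B-cell receptor joins a heavy chain to the surrogate light chain and signals through the Cd79a and Cd79b tails. SRC-family kinases phosphorylate those tails, Syk docks on them and phosphorylates the adaptor Blnk, and Blnk brings Btk and Plcg2 together. Activated Plcg2 makes the messengers that release calcium and recruit protein kinase C and RasGRP exchange factors, which load RAS and feed the ERK cascade.

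The probe sequences behind the main results are shown here because each value is the signal of 1 such oligonucleotide, 60 bases long. All are written 5′ to 3′ in lower case, since no part of them is singled out. The probes of Blk and of Lyn's first probe are given whole, and those of Fgr, Rasgrp3 and Plcg2 by their first 30 bases. Positions are those of the array design on mm9, and no gene annotation of that build was used here to place them in exons.
Blk, chr14:63997333-63998470, minus strand: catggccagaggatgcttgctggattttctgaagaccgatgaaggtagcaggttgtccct
Lyn (first probe), chr4:3716905-3716964, plus strand: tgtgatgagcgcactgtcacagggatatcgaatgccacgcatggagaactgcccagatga
Fgr, chr4:132557522-132557581, plus strand: ttggaaaccaggagaacaggatatatggag
Rasgrp3, chr17:75928310-75928369, plus strand: agaaggaattttgtatctctggtcttccta
Plcg2, chr8:120158980-120159037, plus strand: gtgccttttgaacttccctgttctcagcct
The Blk probe's 60 bases lie across 1138 genomic bases, so it joins separate blocks of the genome. Over the 45 pairs of member probes the longest run of identical bases was 8 (Blnk with Rasgrp3). GC content of the member probes ran from 35 to 53.3% with a median of 42.5%, beside a median of 41.7% over all tested probes.

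Among the SRC-family kinases, Blk and Fgr were well above background on all 3 Mock arrays and on none of the 6 arrays of cells carrying either EBF1 form. Lyn was lower with both EBF1 forms (except 1 probe in EBF1wt under median scaling, at 0.06) and Fyn higher, both by less than 2-fold. Between EBF1ΔC and EBF1wt no SRC-family member was called.

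Blk, a SRC-family kinase largely restricted to B-lineage cells, was at -2.93, -3.11 and -2.91 on the 3 Mock arrays. In EBF1wt it was at -7.11, -7.47 and -5.97, and in EBF1ΔC at -7.56, -6.98 and -7.42. The Mock arrays were all high and did not overlap either EBF1 group. In intensity units Blk read 51.0 to 62.9 in Mock, a dim signal on these arrays, and 2.44 to 8.09 in the EBF1 groups. Because it was not well above background there, only a bound can be given, which sets the Mock mean against the higher of the lowest well-above-background signal and the probe's own signal on each array of the dimmer group. By that measure Blk was at least 5.02-fold lower in EBF1wt and at least 5.30-fold lower in EBF1ΔC. The limma adjusted p values, 3.19e-05 and 1.88e-05, are for the change in measured signal and not for the bound. Since Blk passed the filter through Mock alone, they lend the bound no support.

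Fgr, a SRC-family kinase known from myeloid cells and from some B cells, was at -2.22, -2.18 and -2.40 in Mock. The EBF1wt arrays read -7.52, -7.71 and -7.21, and the EBF1ΔC arrays -6.98, -7.73 and -7.59. Again Mock lay wholly above both EBF1 groups. Fgr was at least 8.24-fold lower in EBF1wt and at least 8.71-fold lower in EBF1ΔC. The limma adjusted p values of the change in measured signal, not of the bound, were 4.94e-07 and 5.60e-07. They lend the bound no support, since Fgr too passed the filter through Mock alone. Its Mock signal was dim, at 72.8 to 103 intensity units.

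Markers of other cell types were measured beside these results. The summed linear signal of the 8 measured mature B-cell markers, in multiples of the array's 75th percentile, was 304 to 353 in Mock, 15.7 to 19.6 in EBF1wt and 25.5 to 29.9 in EBF1ΔC. All 8 were well above background on every Mock array, and Fcer2a on none of the EBF1 arrays. Cd74 made up most of the summed signal, with means of 7.98 in Mock, 3.44 in EBF1wt and 4.35 in EBF1ΔC. Ms4a1 was the 1 marker not highest in Mock, with means of 0.86, 0.34 and 1.29. Of 12 measured myeloid markers, 4 were well above background on all Mock arrays, 3 on all EBF1wt and 2 on all EBF1ΔC arrays, with summed signals of 3.45 to 3.81, 0.66 to 2.87 and 8.04 to 15.7. Mpo, Elane, Cebpa, S100a8 and S100a9 were well above background on no array of any group. Other myeloid markers were higher in Mock, as Fgr was: Itgax averaged -0.33 in Mock, -7.22 in EBF1wt and -7.23 in EBF1ΔC, Tyrobp 1.15, -3.77 and -4.77, and Csf1r, Itgam and Cd14 were well above background on 2 of 3 Mock arrays each and on 0 or 1 of the arrays of each EBF1 group. The higher sum in EBF1ΔC came from Lyz2, which averaged -1.58, 0.48 and 3.59. The 7 erythroid and megakaryocytic markers summed to 345 to 406 in Mock, 3.31 to 5.44 in EBF1wt and 2.43 to 5.37 in EBF1ΔC. Nearly all of that Mock sum came from 1 globin gene, with a mean of 8.55, while Klf1, Pf4 and Itga2b were well above background on no Mock array. The part of these markers in the Blk, Fgr and Rasgrp3 results was not tested, and in bulk samples fewer cells of a type and less RNA per cell cannot be told apart.

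Lyn, the SRC-family kinase that both starts receptor signalling and phosphorylates inhibitory receptors, was measured by a pair of probes that gave the same direction. Its first probe was at 1.58, 1.55 and 1.58 in Mock, 0.78, 0.71 and 0.74 in EBF1wt, and 0.81, 0.68 and 0.58 in EBF1ΔC. Mock was above both EBF1 groups with no overlap, and the EBF1 groups overlapped each other. That probe was lower by 0.82 (SE 0.08, limma adjusted p = 5.43e-05) in EBF1wt and by 0.88 (SE 0.08, limma adjusted p = 4.06e-05) in EBF1ΔC, which is 1.77-fold and 1.84-fold. The second probe read 3.36 to 3.64 in Mock, 2.90 and 2.96 in EBF1wt, where the spot of replicate 2 was an outlier and left out (n = 2), and 2.81 to 2.90 in EBF1ΔC. It was lower by 0.59 (SE 0.11) and 0.67 (SE 0.09). When arrays were centred on the median instead, all tested probes shifted up by a median of 0.75 in EBF1wt and 0.59 in EBF1ΔC against Mock, and the second Lyn probe turned to 0.06 in EBF1wt, which is -0.68 relative to that shift.

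Fyn, a broadly expressed SRC-family kinase, was at -0.11, -0.11 and -0.22 in Mock, 0.61, 0.27 and 0.49 in EBF1wt, and 0.72, 0.70 and 0.82 in EBF1ΔC. The 3 groups were in the order Mock, EBF1wt, EBF1ΔC without overlap. Against Mock the probe was higher by 0.60 (SE 0.10, limma adjusted p = 0.000856) in EBF1wt and by 0.89 (SE 0.10, limma adjusted p = 0.00011) in EBF1ΔC. EBF1ΔC minus EBF1wt was 0.29 (95% interval 0.06 to 0.52, limma adjusted p = 0.144). The array carries 10 spots of the Fyn probe, of which 6 to 10 were used, and their SD within an array was 0.045 to 0.11.

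**Figure D1:**
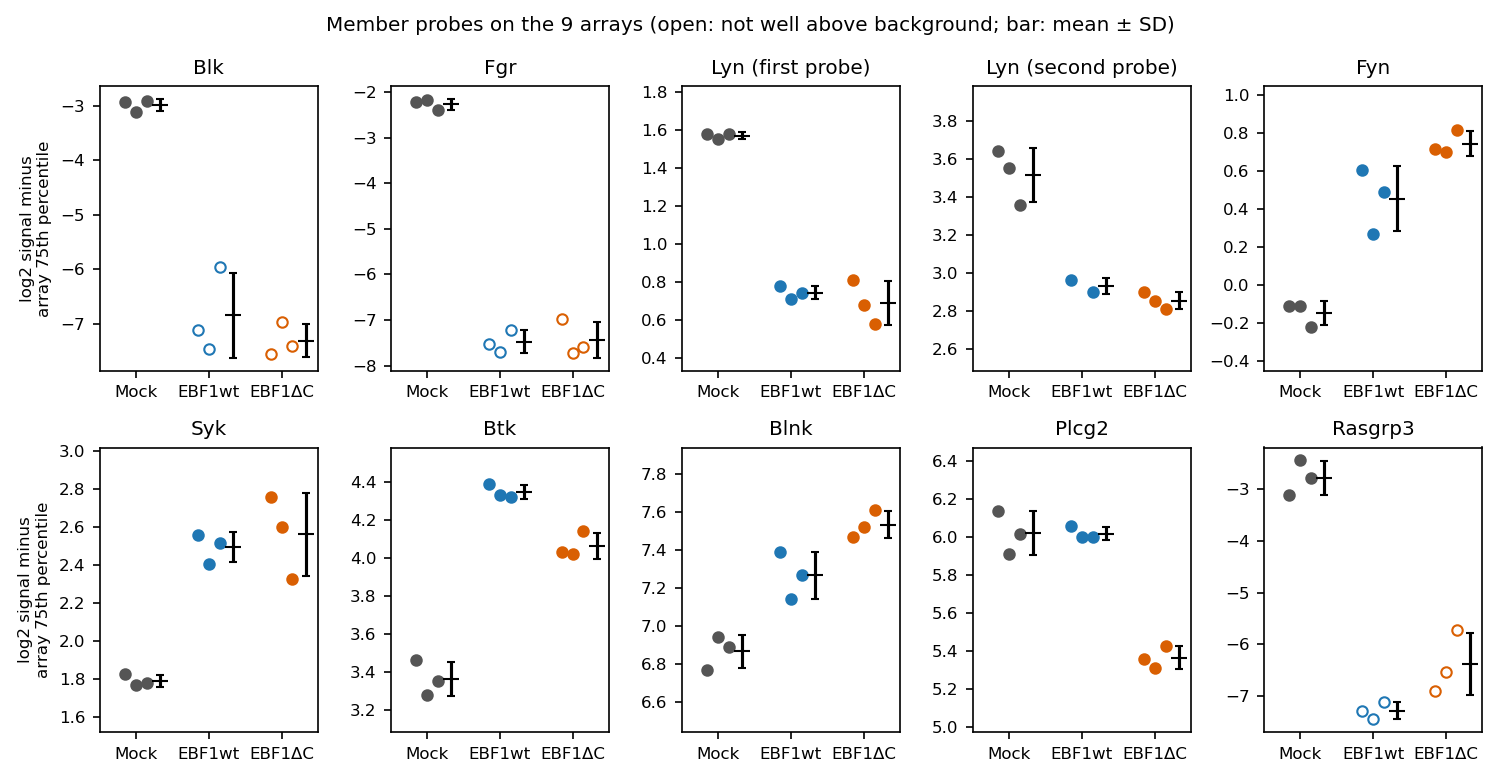
Relative log2 signal (vertical axis, log2 of the processed signal minus the array's 75th percentile) of the 10 member probes on each of the 9 arrays, with the mean and SD of each group. Each probe has its own scale, and open circles are spots not well above background: Blk, Fgr and Rasgrp3 are open on all EBF1 arrays, and Plcg2 is lower on the EBF1ΔC arrays, at 5.31 to 5.43, than on all others.

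Syk and Btk, the non-receptor kinases that act after the SRC family, were both higher with either EBF1 form than in Mock, by less than 2-fold. Syk, the tandem-SH2 kinase that docks on the phosphorylated receptor tails, was at 1.83, 1.77 and 1.78 in Mock, 2.56, 2.41 and 2.52 in EBF1wt, and 2.76, 2.60 and 2.33 in EBF1ΔC. Mock lay below both EBF1 groups, which overlapped each other. The Syk probe was higher than in Mock by 0.71 (SE 0.11, limma adjusted p = 0.000716) in EBF1wt and 0.77 (SE 0.11, limma adjusted p = 0.000465) in EBF1ΔC. EBF1ΔC minus EBF1wt was 0.06, with a 95% interval of -0.19 to 0.32.

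Btk, the TEC-family kinase that phosphorylates Plcg2 and whose loss blocks B-cell development in X-linked immune deficiency, was at 3.46, 3.28 and 3.35 in Mock. It reached 4.39, 4.33 and 4.32 in EBF1wt and 4.03, 4.02 and 4.14 in EBF1ΔC. No group overlapped another, with EBF1wt highest and Mock lowest. The difference from Mock was 0.98 (SE 0.08, limma adjusted p = 1.98e-05) in EBF1wt, 1.98-fold and so just short of a call, and 0.70 (SE 0.08, limma adjusted p = 0.000114) in EBF1ΔC. It was 1.03 without Mock replicate 1 and 1.01 with array weights, and the EBF1wt change was a call in both. EBF1ΔC minus EBF1wt was -0.28 (95% interval -0.46 to -0.10), with an unadjusted p of 0.00726 and a limma adjusted p of 0.0856. Within slides 4 and 5, which held both EBF1 groups, that difference was -0.19 and -0.28. The 10 Btk spots, 9 to 10 of them used, had an SD of 0.033 to 0.123 within an array.

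Blnk, the adaptor that Syk phosphorylates and that gathers Btk and Plcg2, was bright on every array, with 45600 to 98300 intensity units. It was at 6.77, 6.94 and 6.89 in Mock, 7.39, 7.14 and 7.27 in EBF1wt, and 7.47, 7.52 and 7.61 in EBF1ΔC. The groups did not overlap, in the same order as for Fyn. Blnk was higher than Mock by 0.40 (SE 0.09, limma adjusted p = 0.00509) in EBF1wt and by 0.66 (SE 0.09, limma adjusted p = 0.000355) in EBF1ΔC. The EBF1wt rise depended on the scaling. It was 0.07 (limma adjusted p = 0.507) with normexp background correction and 0.05 (limma adjusted p = 0.715) with quantile normalisation alone. In EBF1ΔC the normexp change was 0.35 (limma adjusted p = 0.00589). EBF1ΔC minus EBF1wt was 0.27 (95% interval 0.05 to 0.48, limma adjusted p = 0.146). No spot on any array was marked as saturated.

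Plcg2, the phospholipase C that B cells use downstream of Btk and Blnk, was the member whose difference between the EBF1 forms passed the adjusted p. It was at 6.14, 5.91 and 6.02 in Mock and at 6.06, 6.00 and 6.00 in EBF1wt, and these overlapped. The EBF1ΔC arrays read 5.36, 5.31 and 5.43, below all others. EBF1wt minus Mock was 0.00 (95% interval -0.19 to 0.19, limma adjusted p = 0.997). It was -0.27 (limma adjusted p = 0.0266) with normexp background correction and -0.30 (limma adjusted p = 0.0185) with quantile normalisation alone. With median centring the changes from Mock were 0.70 in EBF1wt and -0.11 in EBF1ΔC. Relative to the shift of all probes these were -0.04 and -0.70. EBF1ΔC was lower than EBF1wt by 0.66 (SE 0.08, 95% interval of the change -0.85 to -0.46, limma adjusted p = 0.0043), which is 1.58-fold, and lower than Mock by 0.66 (SE 0.08, limma adjusted p = 0.000226). Within slides 4 and 5, EBF1ΔC minus EBF1wt was -0.57 and -0.64. With a term for each slide it was -0.61 and the limma adjusted p 0.202, while over the other alternatives the adjusted p was 0.000221 to 0.0245. Neither difference reached 2-fold, so neither was called.

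Rasgrp3, the exchange factor that links diacylglycerol to RAS in B cells, shared the Mock-high pattern of Blk and Fgr. It was at -3.10, -2.44 and -2.78 in Mock, -7.29, -7.46 and -7.13 in EBF1wt, and -6.90, -6.54 and -5.73 in EBF1ΔC. It was well above background on no EBF1 array. Rasgrp3 was at least 5.79-fold lower in EBF1wt and at least 6.12-fold lower in EBF1ΔC. The limma adjusted p values of the change in measured signal, not of the bound, were 5.89e-06 and 1.92e-05. As for Blk and Fgr, they lend the bound no support, since Rasgrp3 passed the filter through Mock alone. Neither EBF1 group was well above background, so no fold is given between them.

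Against Mock, 3 of 10 member probes were called lower in EBF1wt, where 17.4% of all tested probes were, and 0 of 10 were called higher, where 6.08% were. The same 3 genes, Blk, Fgr and Rasgrp3, were called lower in EBF1ΔC, with backgrounds of 16.2% lower and 6.12% higher. By adjusted p alone, 4 member probes were higher and 5 lower in EBF1wt, against 35.3% and 31.6% of all probes. For EBF1ΔC these counts were 4 higher and 6 lower, against 34.1% and 30.6%. Between EBF1ΔC and EBF1wt, 0 of 10 member probes were called by limma, where 2.00% of probes were in either direction. At an unadjusted p under 0.05 there were 5 of 10 (Fyn, Btk, Blnk, Plcg2 and Rasgrp3, the last not well above background in either group), where 21.1% of all probes were. By adjusted p alone 0 were higher and 1, Plcg2, was lower, where 2.79% and 2.74% of probes were. The median change over the 10 member probes was -0.30, -0.66 and 0.00 in EBF1wt minus Mock, EBF1ΔC minus Mock and EBF1ΔC minus EBF1wt, and over all tested probes 0.04, 0.04 and 0.00. The medians against Mock include Blk, Fgr and Rasgrp3, which passed the filter through Mock alone, so their sign is no result about the members. In the same order of comparisons, the groups did not overlap for 9, 10 and 6 of the 10 member probes. The counts against Mock again include Blk, Fgr and Rasgrp3, so they lend no support. The 6 between the EBF1 forms include Rasgrp3, not well above background in either group, and the second Lyn probe, with n = 2 in EBF1wt. Of all tested probes, 72.6%, 72% and 27.4% did not overlap. The first 2 comparisons share the Mock arrays.

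**Figure D2:**
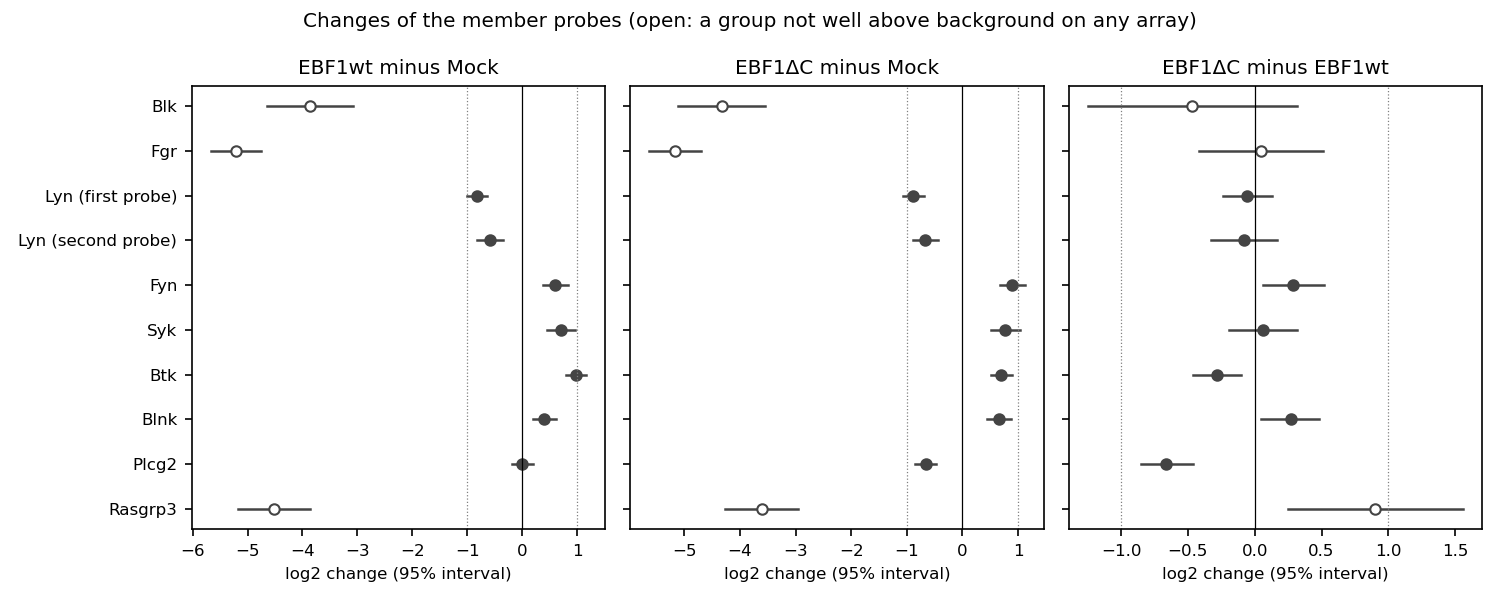
Log2 change (horizontal axis) of each member probe with its 95% interval in the 3 comparisons, with dotted lines at a 2-fold change; open points mark a group in which the probe was well above background on 0 arrays. Blk, Fgr and Rasgrp3 lie below -1 against Mock, Btk in EBF1wt lies at 0.98, and between the EBF1 forms Plcg2 lies at -0.66.

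The calls on Blk and Rasgrp3 and the size of the Fgr change depended on how dim signals were treated. In the authors' deposited values the Blk change was -0.56 in EBF1wt and -0.54 in EBF1ΔC, and that of Rasgrp3 was -0.70 and -0.59. With normexp background correction, an offset of 50 and quantile normalisation, Blk changed by -0.66 and -0.65 and Rasgrp3 by -0.86 and -0.72. All of these had an adjusted p under 0.05 in limma and less than a 2-fold change, and Fgr was the member still called in both, at a much smaller size: its change was -1.01 in EBF1wt and -1.02 in EBF1ΔC in the authors' values and -1.18 and -1.17 with normexp. With median centring Btk, Syk, Fyn and Blnk were also called higher in both EBF1 groups, but relative to the shift of all probes their changes in EBF1wt were 0.94, 0.66, 0.56 and 0.35.

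**Figure D3:**
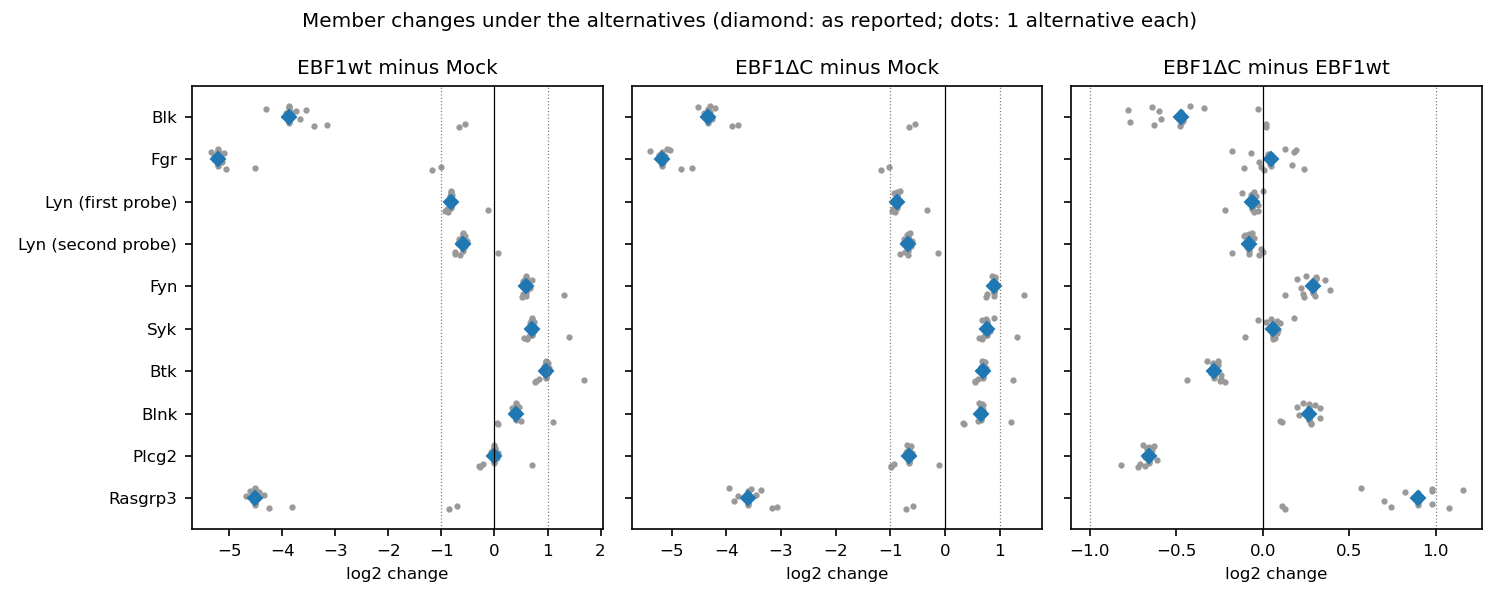
Log2 change (horizontal axis) of each member probe as reported (diamond) and under each alternative processing or left-out array (dots), with dotted lines at a 2-fold change. The dots of Blk and Rasgrp3 near -0.5 to -0.9 are the authors' values and the normexp setting, and the rightmost dots of Btk, Fyn, Syk and Blnk against Mock are median centring.

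For the promoters, the RefSeq table on GRCm38.p6 held 9 windows of 300 bases, from 250 before to 50 after a transcription start, for 7 of the 9 member genes. Blk and Lyn were not matched. The core of the palindrome that EBF proteins are known to bind, CCCNNGGG, reads the same on both strands and occurred in 4491 of 32851 such windows (13.7%). Among the member windows it occurred in 1, that of Fyn, with its first base 39 bases before the start, at -39. The longer palindrome with 1 more base fixed at each end occurred in 0.904% of windows and in 0 of the 9. The 250 bases before the Fyn start are shown with the match in capitals, beside those of Fgr and of the first listed Rasgrp3 start, the matched members that were not well above background with either EBF1 form.
Fyn, chr10:39369549-39369798, plus strand: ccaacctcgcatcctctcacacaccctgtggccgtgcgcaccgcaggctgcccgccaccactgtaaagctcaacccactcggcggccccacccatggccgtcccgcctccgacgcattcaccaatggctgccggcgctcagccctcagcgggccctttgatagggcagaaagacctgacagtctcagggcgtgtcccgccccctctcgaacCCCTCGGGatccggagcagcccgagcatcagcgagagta
Fgr, chr4:132973845-132974094, plus strand: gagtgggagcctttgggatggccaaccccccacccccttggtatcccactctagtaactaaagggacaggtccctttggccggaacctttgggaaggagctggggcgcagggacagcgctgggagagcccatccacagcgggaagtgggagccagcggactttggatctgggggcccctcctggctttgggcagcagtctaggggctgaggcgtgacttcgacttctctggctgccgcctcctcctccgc
Rasgrp3, chr17:75435655-75435904, plus strand: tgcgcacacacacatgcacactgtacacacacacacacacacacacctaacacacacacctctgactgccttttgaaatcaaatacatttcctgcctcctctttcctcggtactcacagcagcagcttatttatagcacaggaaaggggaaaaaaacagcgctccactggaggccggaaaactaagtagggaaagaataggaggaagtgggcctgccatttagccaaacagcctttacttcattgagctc
The Fyn window is rich in CpG, with 31 CpG dinucleotides and 69% GC, the Fgr window holds 11 with 62.7% GC, and this Rasgrp3 window holds 5 with 48.3% GC. A match of these letters is a description of the sequence and not a binding site.

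The rest of the pathway was described by a list of 108 other genes in 7 roles, of which 98 were tested, each by 1 probe. Against Mock, 13 of them rose and 19 fell in EBF1wt, where 6.63% and 12.7% of all 11954 tested genes did. In EBF1ΔC, 13 rose and 18 fell, where 6.37% and 11.7% did. Between EBF1ΔC and EBF1wt, 7 were higher and 2 lower, where 1.31% and 1.21% were. The falls against Mock include Pirb and Cblb, which passed the filter on dim probes through Mock alone. The rises in EBF1ΔC against Mock include Prkcq, and the 7 include Prkcq and Src, which passed it through EBF1ΔC alone. The median change over the 98 genes was -0.04, 0.10 and 0.00, and over all tested genes 0.12, 0.11 and 0.00.

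Upstream of the kinases, 6 of 11 receptor chains and coreceptors rose and 2 fell in EBF1wt, and 4 rose and 1 fell in EBF1ΔC. The surrogate light chain genes led: Igll1 rose by 6.97 in EBF1wt and 5.89 in EBF1ΔC, Vpreb2 by 4.69 and 4.39, and Vpreb1 by 3.50 and 3.59. Igll1 was the receptor-chain gene that was lower in EBF1ΔC than in EBF1wt, at -1.08 (SE 0.13, limma adjusted p = 0.00287).

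Of the brakes on SRC and SYK signalling, 10 of the 18 tested fell and 0 rose against Mock in each EBF1 group, with medians of -1.23 and -1.13, whereas median scaling gave 6 falls and 1 rise in EBF1wt and 8 falls and 3 rises in EBF1ΔC. The 10 include Pirb and Cblb in each group, which passed the filter through Mock alone, so their falls lend no support. Pirb, an inhibitory receptor that recruits phosphatases, was at least 57.2-fold lower in EBF1wt, with a change of -2.60 in the authors' values. In EBF1ΔC, where it was well above background on 2 of 3 arrays, Pirb was called lower at -5.29. Cd5, a scavenger-receptor family protein that dampens antigen-receptor signals, fell by 3.51 in EBF1wt and 4.07 in EBF1ΔC. Sla2, an adaptor that promotes receptor turnover, fell by 3.63 in EBF1wt and 2.00 in EBF1ΔC, and Dok2, an adaptor that recruits RasGAP, by 3.42 and 1.94. Cd22, the sialic-acid binding inhibitory receptor that Lyn phosphorylates, fell by 2.68 in EBF1wt and 3.64 in EBF1ΔC. The ubiquitin ligase gene Cblb was at least 2.98-fold lower in EBF1wt and at least 3.23-fold lower in EBF1ΔC. In EBF1ΔC Cd72 fell by 3.58. Cd72 was at 1.06 to 1.21 in Mock, 1.15 to 1.54 in EBF1wt and -2.81 to -2.21 in EBF1ΔC, so that it was lower by 3.74 in EBF1ΔC than in EBF1wt (SE 0.17, limma adjusted p = 3.15e-05). Dok2 and Sla2 were higher in EBF1ΔC than in EBF1wt, by 1.49 and 1.63. On the EBF1wt arrays Dok2 was at 1.27, 0.11 and 1.13 and Sla2 at -2.41, -3.31 and -2.71, both lowest on replicate 2.

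Among kinases of the same families as the members, 5 of 9 listed were tested. Zap70, the T-cell relative of Syk, rose by 1.63 in EBF1wt and 1.27 in EBF1ΔC. Tec fell by 1.06 in EBF1wt and was at -0.84 in EBF1ΔC, short of 2-fold. Lck, a kinase known from T cells, rose by 1.05 in EBF1ΔC and was higher by 1.28 in EBF1ΔC than in EBF1wt (limma adjusted p = 0.0373). On the EBF1wt arrays Lck was at 1.08, -0.19 and 0.88, lowest on replicate 2. Src was at least 1.44-fold higher in EBF1ΔC than in EBF1wt. It passed the filter through the EBF1ΔC arrays alone, so its direction lends no support. Of 11 measured T, NK and innate lymphoid markers, 4 were well above background on all Mock arrays and 2 on all arrays of each EBF1 group, with summed signals of 3.79 to 4.40 in Mock, 1.92 to 3.44 in EBF1wt and 6.16 to 7.88 in EBF1ΔC. Klrd1 made up most of these sums, with means of 1.93, 1.39 and 2.72. Cd3e was well above background on all 9 arrays, Cd3d on all 3 Mock arrays and 0 and 1 of the EBF1wt and EBF1ΔC arrays, and Cd4, Cd8a, Gata3, Tcf7, Ncr1 and Gzma on none, and the part of this list in the Zap70 and Lck values was not tested.

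Downstream of the members, Lat2, a membrane adaptor related to the T-cell adaptor Lat, fell by 5.84 in EBF1wt and 5.64 in EBF1ΔC, and the B-cell scaffold Bank1 by 2.34 and 2.85. Sh3bp2 fell by 1.90 and 1.82, and Nck2 rose by 1.73 and 1.87. In the PLCgamma arm, 2 of 20 genes rose and 1 fell in each EBF1 group. Plcg1, the close relative of Plcg2, rose by 1.17 (SE 0.10, limma adjusted p = 2.62e-05) and 1.21 (SE 0.10, limma adjusted p = 2.31e-05). Prkce rose by 1.00 in EBF1wt and was at 0.95 in EBF1ΔC, short of 2-fold, and Prkcq was at least 7.28-fold higher in EBF1ΔC than in Mock. Prkcq passed the filter through the EBF1ΔC arrays alone, so its direction lends no support.

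In the RAS and ERK arm, 2 of 17 genes rose and 2 fell in each EBF1 group. Rasgrp2, another exchange factor of the family of Rasgrp3, rose by 1.83 (SE 0.08, limma adjusted p = 6.45e-07) in EBF1wt and 1.72 (SE 0.08, limma adjusted p = 9.68e-07) in EBF1ΔC. The ERK-pathway inhibitor gene Spry2 rose by 1.62 and 1.59, while Rasgrp4 fell by 1.32 and 1.03 and Spry1 by 1.21 and 1.45. Rasgrp1 was higher by 1.07 in EBF1ΔC than in EBF1wt (limma adjusted p = 0.0298). On the EBF1wt arrays Rasgrp1 was at -1.89, -2.74 and -1.88, lowest on replicate 2. In the PI3K arm, Pik3r5 fell by 1.01 in EBF1ΔC, the 1 call among 10 genes against Mock, and was at -0.96 in EBF1wt. The 9 calls between EBF1ΔC and EBF1wt over the list were 3 without EBF1ΔC replicate 1 or 2, 5 without EBF1ΔC replicate 3, EBF1wt replicate 2 or any 1 of the 3 Mock arrays, and 1 in a fit with a term for each slide (2 residual degrees of freedom).

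Some of the named calls were lost under other scalings. In the authors' values these were Zap70 (0.91), Lck (0.95), Prkcq (0.90) and Cblb (-0.16) in EBF1ΔC minus Mock, Prkce (0.69) and Rasgrp4 (-0.33) in EBF1wt minus Mock, and Sla2 (0.94), Src (0.12) and Rasgrp1 (0.59) in EBF1ΔC minus EBF1wt. Other falls stayed calls there at a smaller size, with Cd5 at -1.58 and Lat2 at -3.46 in EBF1wt. Pik3r5 was called in none of the other scalings (-0.46 with median scaling), and median scaling ended the calls on Tec (-0.36) and Spry1 (-0.90).

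**Figure D4:**
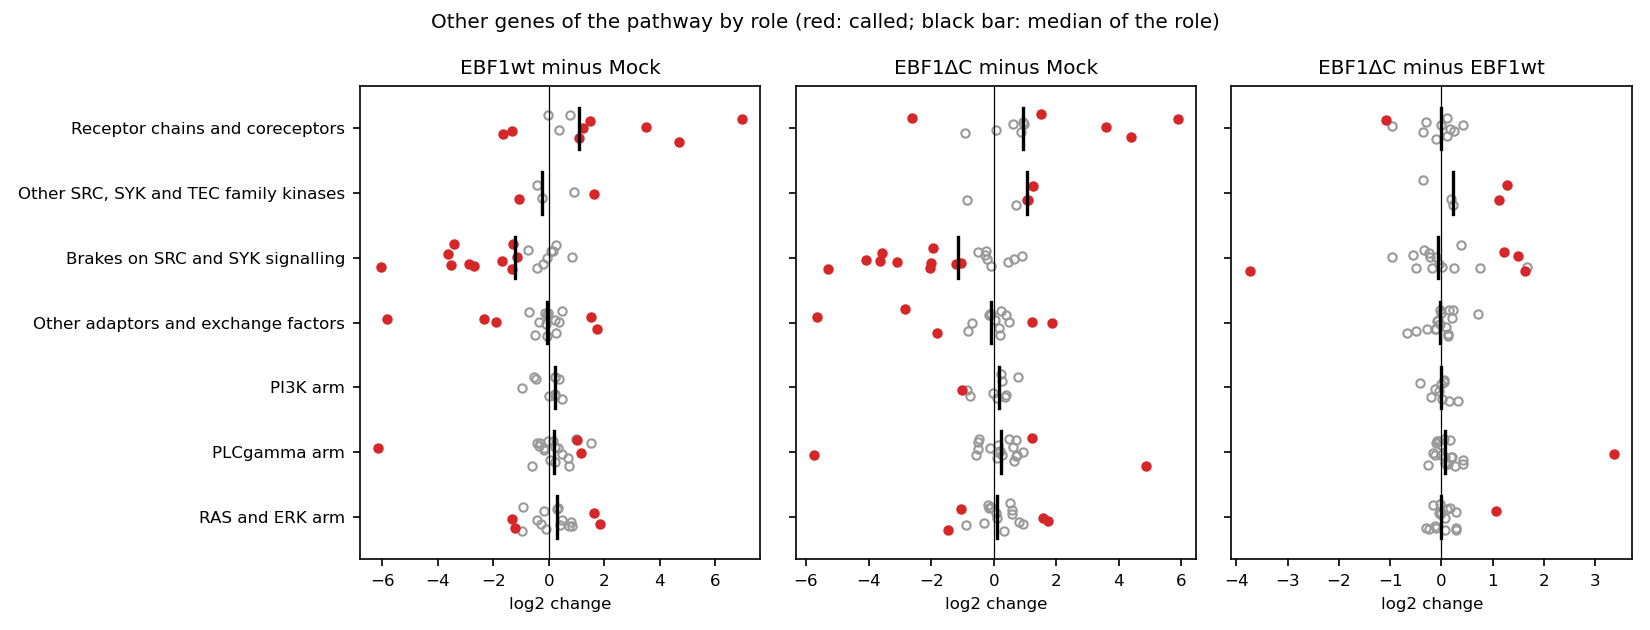
Log2 change (horizontal axis) of the 98 tested genes of the pathway list by role in the 3 comparisons; each point is 1 gene, red points were called and black bars are the median of the role. All 10 red points of the brakes lie below 0 in both comparisons with Mock. Under median scaling 1 and 3 brakes rose, and the 10 in both comparisons include Pirb and Cblb, which passed the filter through Mock alone. Igll1 is the rightmost receptor chain in those comparisons and the leftmost, at -1.08, in EBF1ΔC minus EBF1wt.

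The genes whose pattern over the 9 arrays lay nearest to each called member were taken by the smallest root mean square difference between log2 signals centred on their own mean. For Blk they were Crisp1 (0.39), Aif1 (0.43) and Cd5 (0.44). Fgr was nearest to E230029C05Rik (0.28), Bcl2a1c (0.28) and Upb1 (0.30), all well above background on the Mock arrays alone. Rasgrp3 was nearest to 9630023C09Rik (0.26), H2-DMa (0.34) and Khdc3 (0.34). H2-DMa, which encodes a chain of the chaperone that loads MHC class II, and 9630023C09Rik stayed well above background on all 9 arrays, with changes of -4.27 each in EBF1wt and -3.37 and -3.72 in EBF1ΔC.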

How the data were processed

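RNA of 9 samples was hybridised to 1-colour (Cy3) Agilent mouse arrays. Per the file headers, Feature Extraction 10.5.1.1 produced the deposited background-subtracted processed intensity of each spot, not normalised between arrays, while the submitters' processing notes name version 9.1. The deposited value table by the authors holds log2 values whose column medians are all 6.74 and which correlate at 0.9955 to 0.9967 with quantile-normalised log2 intensity. It was used as an alternative, and how it was centred is not given in the sources used here.

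Here log2 of the processed intensity was taken minus each array's 75th percentile. Control spots (leaving 43379 of 45018) and outlier spots were left out, and spots of a probe were averaged (41174 probes). Probes passed the filter where some group had them well above background on each of its 3 arrays, and the 22355 that passed were fitted over all 9 arrays with limma 3.58.1 in R 4.3.3 (lmFit and eBayes, 6 residual degrees of freedom) and adjusted by Benjamini-Hochberg. Genes were named from the files and, through accession or symbol, from RefSeq on GRCm38.p6, and 6538 probes stayed unnamed. A gene outside the members was represented by the probe with the highest mean. The code was tested on simulated data. The number of arrays, 3 a group, limits the precision.

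The members, gene lists and tests were chosen with earlier results of these data known. Text names all members and, for each comparison and role of the pathway list, up to 3 called genes with the largest change well above background in both groups, and up to 1 bound in each direction, except that some of these genes are not reported here. For some named genes the value in the other EBF1 group is given beside it, chosen after the values were seen. Alternatives were the background correction, normalisation, filter, thresholds, probe choice, slide and replicate blocks, array weights and each array left out.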

Additional observations from a re-analysis of the deposited data

How the results depend on the processing

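The 3 member probes called in each comparison with Mock became 1 with normexp and with the authors' values, 7 with median scaling, 0 of the 6 left when a probe had to be well above background on all 9 arrays, and 9 (EBF1wt) and 10 (EBF1ΔC) with no minimum fold. The 0 between the EBF1 forms became 1 with quantile normalisation (Rasgrp3, not well above background in either group) and 1 with no minimum fold (Plcg2). The second Lyn probe in EBF1wt minus Mock reversed to 0.06 with median scaling. Leaving out 1 array gave 3 to 4, 3 to 3 and 0 to 0 member calls and 31 to 34, 29 to 32 and 3 to 9 pathway calls. Replicate numbers did not pair the samples (correlations from -0.14 to 0.14), and with the replicate block the counts were 3, 3 and 0, while the pathway calls between the EBF1 forms went from 9 to 5. Of 224 alternative values of single members in EBF1wt minus Mock, 213 kept direction and call, as did 216 of 224 in EBF1ΔC minus Mock and 221 of 231 in EBF1ΔC minus EBF1wt.

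Over all probes, the calls in EBF1wt minus Mock, EBF1ΔC minus Mock and EBF1ΔC minus EBF1wt were 1804, 1862 and 176 with normexp, 1745, 1802 and 169 with the authors' values, 3225, 3106 and 290 with the filter on all 9 arrays, and 14956, 14475 and 1237 with no minimum fold, beside 5254, 4990 and 446 as reported. Median scaling gave 9874 and 7729 against Mock. Calls between the EBF1 forms were 110 with the slide as a fixed block, 261 from these groups alone and 236 at an adjusted p under 0.01. The pathway calls of 32, 31 and 9, of which the last was 1 with the slide as a fixed block, were 69, 71 and 15 with no minimum fold and 48 in EBF1ΔC minus Mock with median scaling, and the last count was 5 with normexp, median scaling or the authors' values, 3 with no filter on dim probes, the 2 groups alone or the adjusted p under 0.01. Higher calls made up 25.9% and 27.4% of those against Mock as reported, 42.6% and 41.0% with quantile normalisation, and 80.0% and 71.7% with median scaling. The causes were not tested, except that the stricter filter tests fewer probes. Signals near background limit what can be said of Blk, Fgr and Rasgrp3 in cells with EBF1.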
